A study of Mus musculus with 6 samples.

Results

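The integrated stress response genes described here are Atf4, Ddit3 and 8 genes known as their targets in amino acid synthesis and feedback: Trib3, Chac1, Asns, Sesn2, Ppp1r15a, Psat1, Phgdh and Nupr1. They were taken by symbol from the authors' deposited table, which has 24982 rows, and all 10 are among its 14835 tested genes. The table compares cumulus granulosa cells of Kun-Ming mice, the somatic cells that surround the oocyte, between 3 libraries labelled control and 3 labelled Atg5-KD. The labels describe transfection of short hairpin RNAs against mouse Atg5, a gene needed to build the autophagosome, and do not state what the control cells received, how the cells were cultured, or the age of the mice. Nothing in the labels says that libraries of a group came from separate animals or cultures, so each p-value reflects variation among libraries that could be purely technical.

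The integrated stress response starts with kinases that phosphorylate the translation factor eIF2α when amino acids run short, unfolded protein builds up in the endoplasmic reticulum, or double-stranded RNA or heme deficiency is sensed. General translation then falls while the mRNA of the transcription factor ATF4 is translated more, so ATF4 protein can change with no change of its mRNA. ATF4 induces enzymes and transporters of amino acids, the transcription factor CHOP (Ddit3), and feedback proteins such as Trib3 and Ppp1r15a that restrain the response. Granulosa cells take up and make amino acids for the oocyte as well as for themselves.

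The table pools the libraries of a group, so values per library, and whether the groups overlap, were not analysed here. Means of each group were solved from the deposited mean over all libraries and the fold change, and are estimates. The direction of the fold change follows the group order in the table's name, Atg5-KD over control, and every rise or fall below would turn if that order did. Atg5 itself gave no check of it, with estimated means of 414.0 normalized counts in control and 396.9 in Atg5-KD and, in the authors' deposited table, a log2 fold change of -0.06 ± 0.14 (SE) (Wald adjusted p = 0.822). Its 95% interval ran from a fall of 20.73% to a rise of 15.95%. The knockdown named in the labels was thus not seen in Atg5 mRNA here, and ATG5 protein was not measured. Reads of the ribosomal RNA locus Rn45s differed between the groups, at an estimated 1.17% of all normalized counts in control and 17.9% in Atg5-KD. Granulosa markers Gja1 and Inha had base means of 37680 and 30060 normalized counts in the authors' deposited table. They were picked as the 2 most abundant of a list of granulosa and cumulus markers, so their level was no check of cell identity. The same list holds Fshr at a base mean of 93.4 and Cyp19a1 at 2.34.

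As a description, the promoters were searched for 3 DNA elements: the C/EBP-ATF response element, the ATF/CRE core and the ER stress element. ATF4 is known to act through the C/EBP-ATF response element. The ATF/CRE core is bound by several factors of the ATF and CREB families. The ER stress element is known as a site of ATF6 with NF-Y. RefSeq promoter windows of GRCm38.p6, 250 bases before to 50 bases after the start of transcription, were found for all 10 genes (11 windows, with 2 for Psat1). The C/EBP-ATF response element, TGATGNAA read on both strands, was found in the windows of 4 genes, Chac1, Nupr1, Asns and Trib3, and in 3.97% of all 32851 promoter windows. The 10 genes include known ATF4 targets, so this count is no test. The ATF/CRE core TGACGTCA, which is its own reverse complement, was found for Ppp1r15a alone among the 10 and in 1.79% of all windows. The ER stress element was found in none of them and in 0.119% of all windows. The 4 matches that lie before the start are shown in 100 bases each, 5′ to 3′ on the gene's own strand, with the matched bases in capitals.

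Nupr1 (chr7:126625527-126625626, minus strand): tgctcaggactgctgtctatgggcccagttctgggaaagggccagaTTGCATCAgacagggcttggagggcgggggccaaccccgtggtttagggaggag
Chac1 (chr2:119351003-119351102, plus strand): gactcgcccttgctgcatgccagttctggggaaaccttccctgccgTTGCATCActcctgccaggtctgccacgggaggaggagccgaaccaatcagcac
Asns (chr6:7693210-7693309, minus strand): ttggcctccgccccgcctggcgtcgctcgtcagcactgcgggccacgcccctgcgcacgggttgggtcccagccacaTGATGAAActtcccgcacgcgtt
Ppp1r15a (chr7:45526269-45526368, minus strand): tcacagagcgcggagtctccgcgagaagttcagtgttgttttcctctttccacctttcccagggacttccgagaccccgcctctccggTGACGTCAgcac

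The match began 193 bases before the start in Chac1, 110 in Nupr1, 23 in Asns and 12 in Ppp1r15a, and in Trib3 it began at base 15 of the transcript. Chac1 and Nupr1 carried the same 8 letters, the reverse complement of TGATGCAA, which stood in 0.895% of all windows. These letters are a description of the reference genome and do not show that a factor binds there.

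Of the 10 genes, 1 rose and 4 fell in the libraries labelled Atg5-KD, and 5 did not pass the test, at an adjusted p under 0.05 (authors' deposited table, DESeq2 Wald test with Benjamini-Hochberg adjustment). Ddit3 rose, and Nupr1, Psat1, Phgdh and Asns fell. Over all tested genes 10.4% were called higher and 10.5% lower, or 20.9% in either direction, and the median log2 fold change was 0.0042 against -0.23 over the 10 genes. Estimates lay below 0 for 9 of the 10, against 7363 of all 14835 tested genes. That count depends on the setting. With the trend of fold changes with GC content and gene length removed, Atf4 (0.034), Trib3 (0.039), Sesn2 (0.14) and Ppp1r15a (0.10) lay above 0. The 10 genes were chosen with results of these data known, so these counts describe them and are no test of the pathway.

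**Figure D1:**
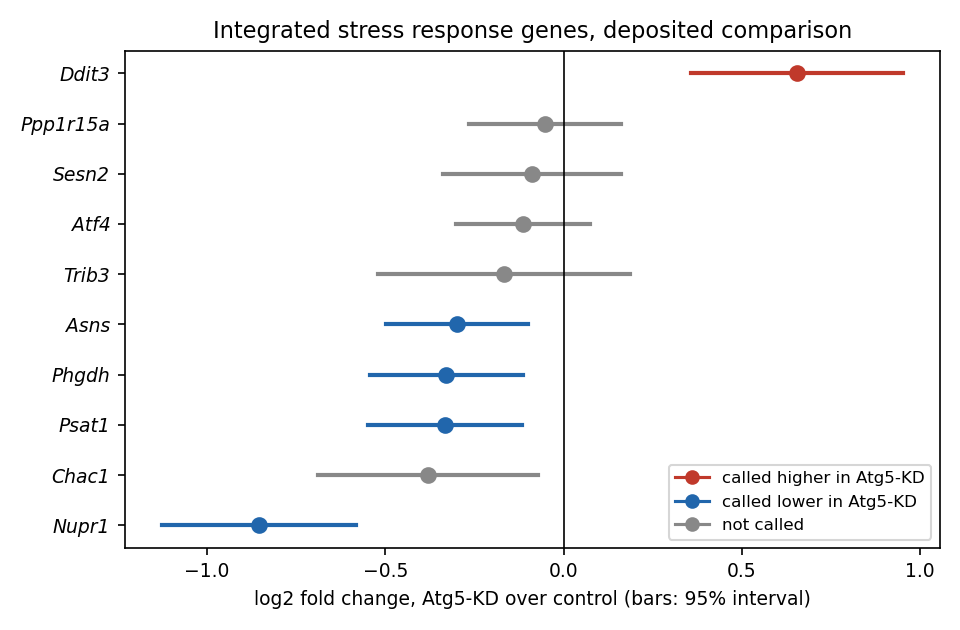
Log2 fold change (x axis, Atg5-KD over control) of each of the 10 genes in the authors' deposited table, with 95% intervals as bars and colours for the call. Ddit3 stands alone to the right of 0 at 0.66, Nupr1 lies farthest left at -0.85, and Asns, Phgdh and Psat1 lie close together between -0.33 and -0.30.

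Atf4, the transcription factor at the centre of the response (gene 11911, chromosome 15, 80255184 to 80257545 in GRCm38.p6), was abundant and did not pass the test. Its estimated mean was 4414 normalized counts in control and 4078 in Atg5-KD. The authors' deposited table gave a log2 fold change of -0.11 ± 0.10 (SE) (Wald adjusted p = 0.446). The 95% interval ran from a fall of 18.9% to a rise of 5.20%, so mRNA changes beyond these sizes lie outside it. ATF4 protein was not measured.

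Ddit3, which encodes CHOP, a transcription factor of prolonged stress that can promote cell death (gene 13198, chromosome 10, 127290793 to 127296291), was the member that rose. Its estimated mean went from 233.3 normalized counts in control to 367.4 in Atg5-KD. That is a rise of 57.5%, with a 95% interval from 28.2% to 93.4%. In the authors' deposited table the log2 fold change was 0.66 ± 0.15 (SE) (Wald adjusted p = 0.000226), and 91.7% of all tested genes had a lower value. Exons of Ddit3 share 105 bases, 6.13% of its exonic length, with another protein-coding entry of the same name on the same strand. On the opposite strand they share 68 bases with Mars, 3.97% of that length, and 13 with Gm4189. The sources used here do not say whether counting used strand. Mars, a methionyl-tRNA synthetase, was not called, at -0.09 ± 0.09 (SE) on the log2 scale (authors' deposited table). Ppp1r15a shares 12 exonic bases with Tulp2 on the opposite strand.

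Nupr1, a small chromatin-associated protein induced by many stresses (gene 56312, chromosome 7, 126623246 to 126625470), fell most among the 10. Estimated means were 6670 normalized counts in control and 3689 in Atg5-KD, a 1.81-fold difference. In the authors' deposited table its log2 fold change was -0.85 ± 0.14 (SE) (Wald adjusted p = 3.01e-08), and 4.78% of tested genes had a lower value. Its standard error was large for its abundance. Of genes with a base mean within 1.5-fold of its own, 93.2% had a smaller standard error, with a median of 0.10 on the log2 scale.

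The enzymes of amino acid synthesis fell by similar amounts. Phgdh (gene 236539, chromosome 3, 98313171 to 98339969) catalyses the first step from glycolysis to serine, and its estimated mean went from 3012 normalized counts in control to 2399 in Atg5-KD. For Psat1 (gene 107272, chromosome 19, 15905123 to 15925059), the aminotransferase of the next step, the means were 1338 and 1063. Asns (gene 27053, chromosome 6, 7675165 to 7693209), which makes asparagine from aspartate and glutamine, went from 2198 to 1787. These are falls of 20.4%, 20.6% and 18.7%.

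In the authors' deposited table the log2 fold changes were -0.33 ± 0.11 (SE) for Phgdh, -0.33 ± 0.11 (SE) for Psat1 and -0.30 ± 0.10 (SE) for Asns, with Wald adjusted p-values of 0.0166, 0.0161 and 0.0202. All 3 lie near the limit of what the test could call: a size of 0.28 on the log2 scale was needed for Phgdh and Psat1 and 0.26 for Asns. With the trend of fold changes with GC content and gene length removed over all genes, Phgdh was at -0.14 and no longer called (adjusted p = 0.478), while Psat1 at -0.34 and Asns at -0.31 still passed. Psph, the phosphatase of the last serine step, had estimated means of 454.8 and 430.3 normalized counts and did not pass (adjusted p = 0.748, Wald test of the authors' deposited table).

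Feedback and effector genes gave values below 0 without passing the test. Chac1, which degrades glutathione (gene 69065, chromosome 2, 119351242 to 119354326), had estimated means of 277.3 normalized counts in control and 212.8 in Atg5-KD. At -0.38 ± 0.16 (SE) on the log2 scale its estimate was larger than those of the 3 synthesis enzymes, but so was its error, and it missed the threshold (Wald adjusted p = 0.0676, unadjusted p = 0.0154, authors' deposited table). A size of 0.40 would have been needed for a call. Trib3, a pseudokinase that binds ATF4 and CHOP (gene 228775, chromosome 2, 152337425 to 152344060), was the least abundant, with estimated means of 165.4 and 147.4. Its log2 fold change was -0.17 ± 0.18 (SE) in the authors' deposited table, with a 95% interval from -0.52 to 0.19.

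Sesn2, a leucine-sensing inhibitor of mTORC1 (gene 230784, chromosome 4, 132492804 to 132510456), had estimated means of 730.7 normalized counts in control and 687.3 in Atg5-KD. For Ppp1r15a, also called GADD34, the subunit that directs a phosphatase to eIF2α (gene 17872, chromosome 7, 45522917 to 45526268), they were 822.4 and 793.0. The authors' deposited table gave -0.09 ± 0.13 (SE) for Sesn2 and -0.05 ± 0.11 (SE) for Ppp1r15a on the log2 scale. The 95% interval allowed a change of Ppp1r15a between a fall of 16.9% and a rise of 11.8%. Of the 5 genes with a promoter match to either element, Nupr1 and Asns fell and Chac1, Trib3 and Ppp1r15a did not pass the test. Ddit3, Psat1 and Phgdh changed with no match in these windows.

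**Figure D2:**
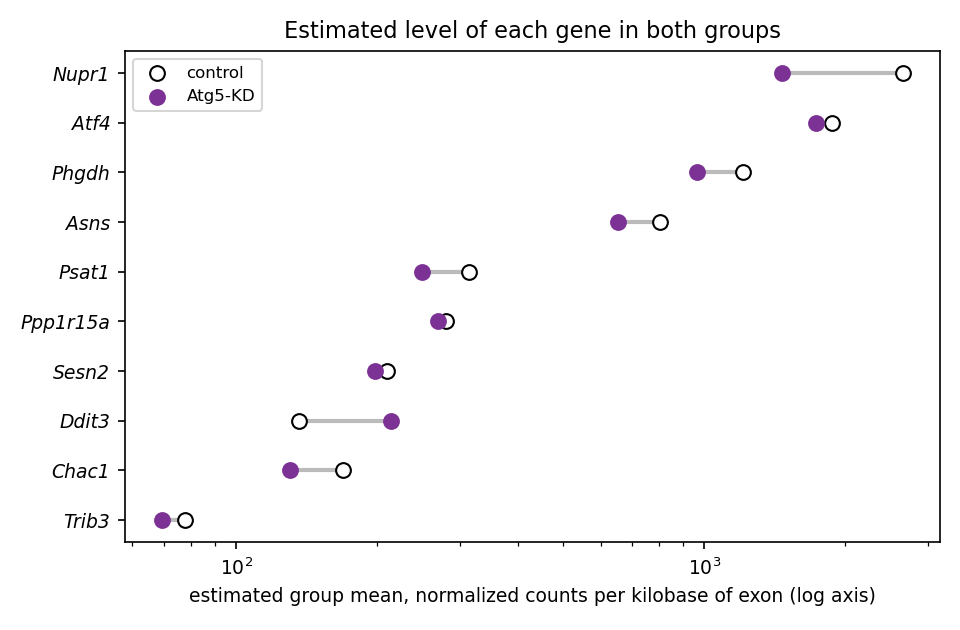
Estimated group means (x axis, log scale) in normalized counts per kilobase of exon, with control as open and Atg5-KD as filled circles for each of the 10 genes (y axis, ordered by level). Nupr1 and Atf4 lead in both groups, and in Nupr1 the filled circle lies below that of Atf4 while the open one lies above it. The exonic length used for Nupr1 is longer than its RefSeq span and may set this crossing.

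Per kilobase of exon, levels over both groups spanned 28.0-fold, from 2060 normalized counts per kilobase for Nupr1 to 73.6 for Trib3. The order was Nupr1, Atf4, Phgdh, Asns, Psat1, Ppp1r15a, Sesn2, Ddit3, Chac1 and Trib3. Of the 9 neighbouring pairs, only Psat1 and Ppp1r15a had a 95% interval that included 1, from 0.924 to 1.14 around a ratio of 1.03. The intervals treat the genes as independent and the exonic lengths as exact. For Nupr1 that length, 2514 bases, is longer than its RefSeq span given above. The lengths used may set the order of close pairs: Nupr1 and Atf4 (ratio 1.14), Sesn2 and Ddit3 (1.16), and Ddit3 and Chac1 (1.17). In control Nupr1 stood at 2653 and Atf4 at 1872 normalized counts per kilobase, and in Atg5-KD at 1467 and 1730. Ddit3 stood below Chac1 in control, at 136.2 against 169.4 per kilobase, and above it in Atg5-KD, at 214.5 against 130.0. These changes of place were not tested, and that of Nupr1 and Atf4 may rest on the length used for Nupr1.

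**Figure D3:**
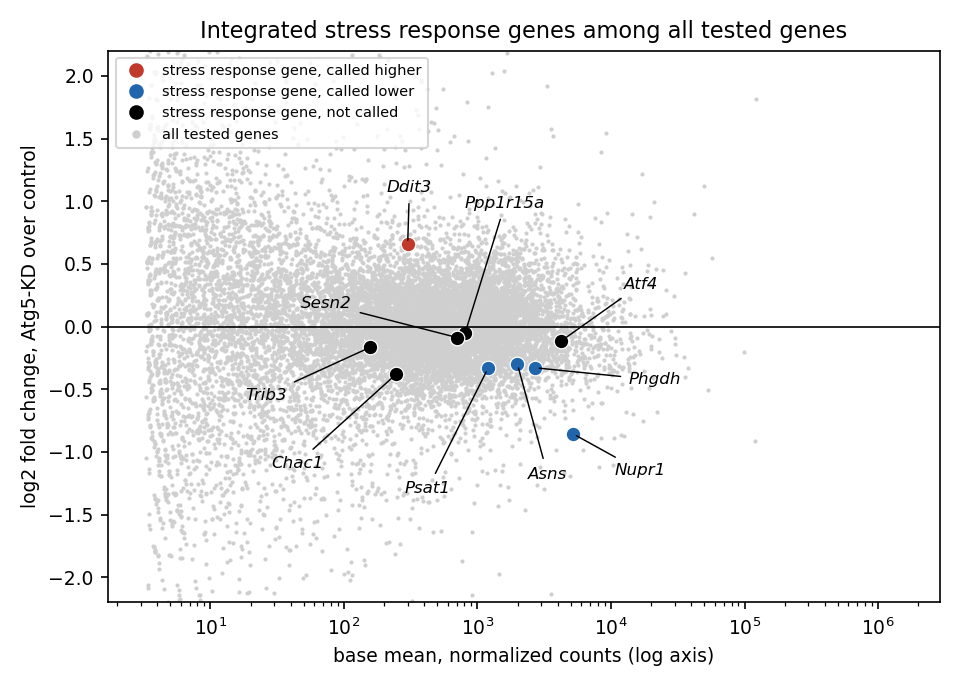
Log2 fold change (y axis, Atg5-KD over control) against base mean in normalized counts (x axis, log scale) for all tested genes in grey and the 10 genes in colour or black. The plot is limited to 2.2 on either side of 0, which leaves out 217 tested genes. Nupr1 at -0.85 lies below most genes of its abundance and Ddit3 at 0.66 above most, and the other 8 lie within the cloud.

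The kinases that phosphorylate eIF2α were described next, with the other genes of the pathway grouped by role. Eif2ak2, which encodes PKR, the kinase that double-stranded RNA activates and interferon induces, rose from an estimated 373.4 to 1290 normalized counts, and the authors' deposited table gave a log2 fold change of 1.79 ± 0.12 (SE) (Wald adjusted p = 2.14e-47). All 12 genes of an interferon response list rose as well, with a median log2 fold change of 5.64, beside 10.4% of all tested genes called higher. Ddx58 among them was at 3.12 in the authors' deposited table. The list was drawn up with this shift already known, so its count is no test. The other 3 kinases did not pass the test. The authors' deposited table put Eif2ak1 (HRI, heme) at 0.01 ± 0.11 (SE), Eif2ak3 (PERK, endoplasmic reticulum) at 0.01 ± 0.12 (SE) and Eif2ak4 (GCN2, uncharged tRNA) at -0.02 ± 0.11 (SE). Phosphorylation of eIF2α was not measured.

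Of 20 genes for eIF2α kinases, phosphatase parts and subunits of eIF2 and eIF2B, 3 rose and 0 fell, with a median log2 fold change of 0.01. The 15.0% that rose stands beside 10.4% of all tested genes, which is close for 20 genes. Besides Eif2ak2 the authors' deposited table had Ppp1cb at 0.38 ± 0.10 (SE) and Ppp1cc at 0.29 ± 0.09 (SE), both catalytic subunits of protein phosphatase 1. Ppp1cb was no longer called with the GC and length trend removed (0.13, adjusted p = 0.487). Eif2s1, which encodes eIF2α, had estimated means of 2065 and 2233 normalized counts and did not pass.

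Enzymes of serine, one-carbon and other amino acid metabolism fell in 10 of 16 cases and rose in 1, that is 62.5% lower against the 10.5% of all tested genes, with a median log2 fold change of -0.31. Cbs, which condenses homocysteine with serine, fell from an estimated 201.0 to 69.9 normalized counts, at -1.52 ± 0.20 (SE) in the authors' deposited table. Shmt2, the mitochondrial serine hydroxymethyltransferase, went from 2282 to 1564. Mthfd1, a cytosolic enzyme of the folate cycle, was at -0.36 ± 0.10 (SE) in the authors' deposited table. Further falls were those of the ATF4 target Mthfd2 at -0.31 and of the proline enzymes Aldh18a1 at -0.32 and Pycr1 at -0.69, and the gene that rose was Glul, glutamine synthetase, at 0.29 in the authors' deposited table. With the GC and length trend removed 7 fell and 1 rose, beside 1069 lower and 977 higher of 14680 genes under the same setting.

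Amino acid transporters known as ATF4 targets fell in 4 of 13 cases and rose in 1, or 30.8% and 7.69%, beside 10.5% and 10.4% of all tested genes. Slc7a5, the light chain of the leucine transporter LAT1, fell from an estimated 2174 to 1471 normalized counts, and Slc6a9, a glycine transporter, from 661.8 to 404.1. In the authors' deposited table Slc7a3, a carrier of cationic amino acids, was at -0.60 ± 0.18 (SE) and Slc36a4 at 0.42 ± 0.13 (SE) on the log2 scale. Slc36a4 was not called with the trend removed (0.28, adjusted p = 0.156). Slc7a11, the cystine carrier and a frequent marker of ATF4 activity, was low at estimated means of 64.5 and 73.1 and did not pass. Cytosolic tRNA synthetases had 2 lower and 0 higher of 20, a share of the list no larger than the 10.5% of all tested genes called lower. The 2 in the authors' deposited table were Vars at -0.31 ± 0.11 (SE) and Yars at -0.26 ± 0.10 (SE). Neither was called with the trend removed (-0.02 and -0.19, adjusted p = 0.931 and 0.194).

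Of the other stress factors and feedback genes, 2 of 22 were higher and 4 lower, or 9.09% and 18.2%, beside 10.4% and 10.5% of all tested genes. Sqstm1, the autophagy receptor p62, rose from an estimated 10850 to 13770 normalized counts, at 0.34 ± 0.10 (SE) in the authors' deposited table. Atf5, an ATF4-related factor of mitochondrial stress, was at -0.30 ± 0.10 (SE), Gadd45a, a DNA damage response gene, at -0.42 ± 0.14 (SE), and Ndrg1 at -0.61 ± 0.19 (SE) in the authors' deposited table. The call of Atf5 was lost once the trend was removed (-0.01, adjusted p = 0.976). Cebpg, a partner of ATF4, rose by 0.29, while Atf3, a target of both ATF4 and CHOP, had an estimate of 0.63 ± 0.25 (SE) close to that of Ddit3 and missed the threshold (Wald adjusted p = 0.0522, authors' deposited table). According to the authors' deposited table, Bcl2l11, a CHOP target that promotes cell death, fell by 0.42.

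In the unfolded protein response outside the eIF2α branch, 9 of 26 genes fell and 0 rose, with a median log2 fold change of -0.19. That is 34.6% lower, beside 10.5% of all tested genes lower, 10.4% higher and a median of 0.0042. Derl3, which helps to export misfolded protein for degradation, went from an estimated 3346 to 1213 normalized counts, at -1.46 ± 0.14 (SE) in the authors' deposited table. The authors' deposited table also had the sensor Atf6b at -0.56 ± 0.10 (SE), with the chaperone Hyou1 and the disulfide isomerase Pdia6 both at -0.42 ± 0.09 (SE). Hspa5, the main chaperone BiP, fell by 0.24 on the log2 scale (Wald adjusted p = 0.0203, authors' deposited table). Ddit3, which the eIF2α branch of the same response induces, was called in the opposite direction.

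Genes of the mitochondrial stress signal were called no more often than tested genes in general, with 1 of 12 higher and 1 lower, or 8.33% each way against 10.4% and 10.5%. They were the protease Yme1l1 at 0.35 ± 0.10 (SE) and Atf5, in the authors' deposited table. Yme1l1 was not called with the trend removed (0.09, adjusted p = 0.643). Of 13 autophagy genes listed as ATF4 targets 2 rose and 1 fell, or 15.4% and 7.69%, which is near the shares of all tested genes. They were the receptor Nbr1 at 0.38 ± 0.10 (SE) with Sqstm1, and Map1lc3b, which encodes an LC3 protein, at -0.32 ± 0.09 (SE) in the authors' deposited table. Over the 139 pathway genes beside the 10, of which 138 were tested, 9 rose and 30 fell, or 6.52% and 21.7%, beside 10.4% and 10.5% of all tested genes, with a median of -0.07 beside 0.0042. Psph, Mthfd2, Aldh18a1, Pycr1, Glul, Eif2s1, Slc7a11, Cebpg, Atf3, Bcl2l11, Hspa5 and Mars were named for their role after their values were seen.

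**Figure D4:**
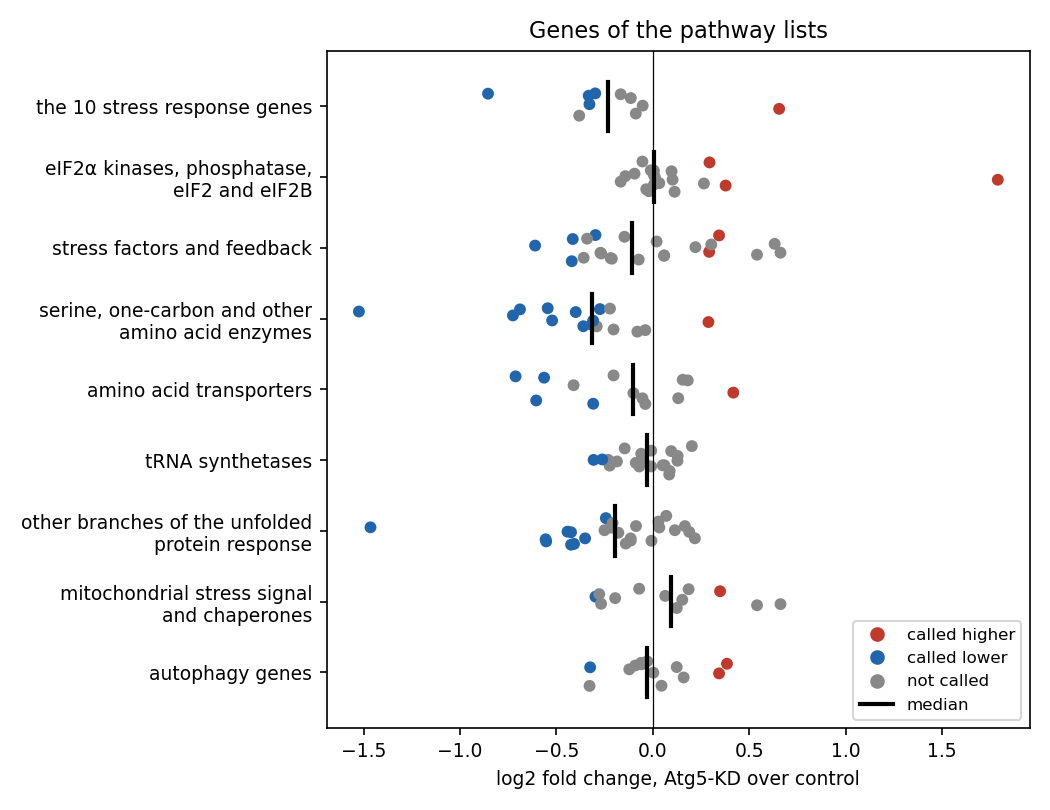
Log2 fold change (x axis, Atg5-KD over control) of each tested gene in the 10-gene group and 8 further lists (y axis), with colours for the call and a bar at the median. The serine and one-carbon list has its median at -0.31, while the eIF2α kinase list is centred near 0 with Eif2ak2 alone at 1.79.

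Markers of other cell types moved with the groups, and their part in these results was not tested. Their counts stand beside 10.5% lower and 10.4% higher over all tested genes. Of 20 leukocyte markers 18 were tested and 12 fell, and the sum of the listed genes' estimated means was 2424 normalized counts in control and 649.6 in Atg5-KD. Lyz2, the most abundant, was at -2.14 ± 0.32 (SE) and Cd68 at -1.09 ± 0.21 (SE) in the authors' deposited table. Theca and stroma markers, led by Col1a1 and Col1a2, fell in 7 of 10 cases with sums of 9621 and 5904. Of that list Cyp17a1 and Insl3, at base means of 0.131 and 2.40 normalized counts, were not tested. Dcn at -0.03, Ptch1 at -0.04 and Postn at -0.38 on the log2 scale did not pass in the authors' deposited table. Smooth muscle and pericyte markers, led by Acta2 and Tagln, fell in 8 of 10 with 1 rise, with sums of 12730 and 5903. Endothelial markers (sums of 300.0 and 260.6, Egfl7 and Eng leading) and oocyte markers (111.5 and 118.3, Kit and Gdf9 leading, Figla at 0) had 0 calls, with 8 and 7 tested. Granulosa and cumulus markers fell in 8 of 17 cases and rose in 3, Gja1 at -0.33 ± 0.09 (SE) among the lower in the authors' deposited table, with sums of 127800 and 115000. Fewer cells of a type, or less RNA of these genes per cell in cumulus or other cells, cannot be told apart in these bulk libraries.

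The deposited scaling leaves the median of all genes near 0. When fold changes were instead scaled to all estimated reads, those of Rn45s included, every log2 fold change shifted by -0.30. The same scaling without Rn45s shifted them by -0.03, so this 1 locus made up nearly all of the shift. With Rn45s included, 9 of the 10 genes were called lower, and Ddit3 was still called higher at 0.36 (adjusted p = 0.0447), while 5735 of all 14835 tested genes were called lower. At a threshold of 0.01, Ddit3 and Nupr1 kept their calls. Tested against a fold of 1.2 in place of no difference, Nupr1 alone did. With the Wald statistics set against a t distribution with 4 degrees of freedom, 0 of the 10 genes and 0 of all tested genes were called, and at an unadjusted p under 0.05 on that distribution 1 of the 10 was higher and 4 were lower, beside 1348 higher and 1350 lower of all 14835 tested genes.

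**Figure D5:**
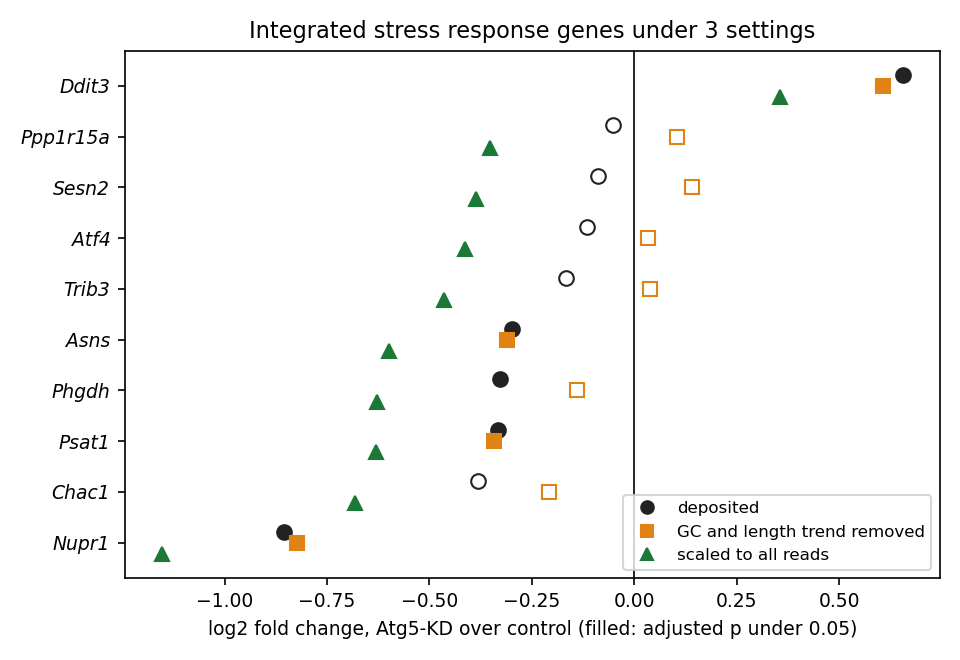
Log2 fold change (x axis) of the 10 genes as deposited, after removal of the GC and length trend, and scaled to all reads, with filled symbols for an adjusted p under 0.05. Ddit3 lies to the right of 0 and Nupr1, Psat1 and Asns to the left with filled symbols under all 3, and Atf4, Sesn2, Trib3 and Ppp1r15a change sign with the trend removed.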

How the data were processed

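A single table was used, the authors' own comparison of 3 libraries labelled Atg5-KD with 3 labelled control, numbered 2 to 4 in each group. Tools listed in the submitters' processing notes, whose roles the authors do not give there, are DESeq2 1.30.1, StringTie 2.1.4, featureCounts 1.6.2 and STAR, with the mouse build mm10. Per the file headers it holds DESeq2 results: base mean (a signal value made by the authors, counts divided by size factors and averaged over libraries), log2 fold change and its standard error on the log2 scale as deposited, the Wald statistic (a score deposited by the authors), and the deposited p-value and adjusted p-value. The statistic, p-value and adjustment were recomputed, and 0 rows differed at a tolerance of 1e-06. There are 0 columns of values per library, so depth per library was not analysed here, and the standard errors carry the precision.

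Genes and lists were chosen with earlier results of these data known. Beside the 10 members, from each pathway list up to 4 called genes of smallest p were named (with no call, the 2 of highest base mean), from each marker list the 2 of highest base mean, and always the 4 eIF2α kinases and Atg5. Results for a few genes under this rule are not reported here. Group means assume 3 libraries per group. The order of levels used exonic lengths from GENCODE M21 and took the error of a level as that of the fold change divided by 2. Coordinates and promoters are RefSeq GRCm38.p6. Alternatives changed the threshold, the filter on low means, the scaling, the GC and length trend (a robust quadratic fit over the 99.0% of tested genes with both values), the reference distribution and the minimum fold, in Python 3.11.15 with scipy 1.17.1 and statsmodels 0.14.6. The scripts were tested on simulated data.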

Additional observations from a re-analysis of the deposited data

How the results depend on the processing

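Ddit3 kept a log2 fold change between 0.36 and 0.66 and a call in 6 of 8 alternative settings, and Nupr1 a value between -1.15 and -0.82 and a call in 7 of 8. At a threshold of 0.01 the 4 lower genes became 1, and with the GC and length trend removed they became 3. They became 1 against a fold of 1.2 and 9 with the scaling to all reads. The 1 higher gene became 0 against a fold of 1.2. Of all 14835 tested genes, 1026 were higher and 1030 lower at the threshold of 0.01. With the trend removed, 977 were higher and 1069 lower of 14680. Among the 138 other pathway genes, the 9 higher and 30 lower became 1 and 94 with the scaling to all reads and 1 and 4 against a fold of 1.2, where all 14835 tested genes gave 534 and 5735, and 411 and 367. On a t distribution with 4 degrees of freedom 0 genes were called in either direction, members and pathway lists alike, and the lowest adjusted p of any tested gene was 0.0554. At an unadjusted p under 0.05 on that distribution, 1 of the 10 genes was higher and 4 lower, and 7 and 26 of the 138 other pathway genes, beside 1348 and 1350 of all tested genes. With the GC and length trend removed, Atf4 (0.034), Trib3 (0.039), Sesn2 (0.14), Ppp1r15a (0.10) and Eif2ak1 (-0.0042) changed sign without a call, and with the scaling to all reads Eif2ak1 (-0.29), Eif2ak3 (-0.29) and Ppp1cc (-0.0049) did, the first pair then being called lower. Fixing the free base of TGATGNAA as C left 2 of the 4 genes with a match. No paired analysis was possible because the table holds no values per library, and leaving out each replicate in turn was not run for the same reason. Low abundance limits Trib3, Chac1 and Ddit3 most, where a log2 change under 0.46, 0.40 and 0.39 could not have been called.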
